A study of Homo sapiens with 12 samples.

Results

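The genes described here take up arginine, rebuild it from citrulline, split it, turn it into nitric oxide, and make or break down the polyamines that derive from it. The members are ASS1, ASL, ARG2, NOS2, NOS3, GCH1, ODC1, SAT1, SLC7A1 and SLC7A2, and every non-control probe that the array files assign to one of them was taken. These are 10 of the 25992 gene names on the array, and they are read by 14 of its 34127 probes. SAT1 has 3 probes, ASS1 and GCH1 have 2 each, and the other genes have 1 each. The rule itself uses no measured value, but the members were chosen with earlier results of these data known.

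RNA came from HK-2 cells, a human proximal tubular line immortalized with papillomavirus genes, and from RPTEC/TERT1 cells, a line of the same origin immortalized with telomerase, and was hybridized to 12 one-color arrays. The cells received no ligand (control), the pro-inflammatory cytokine IL-1β at 10 ng/mL, or the SGLT2 inhibitor empagliflozin (Empa) at 500 nM for 24 h, with 2 arrays per line and treatment. The ligands were not combined on any array. All groups were grown in medium with a normal glucose concentration. Per the study, the cells were kept without serum and supplements for 24 h beforehand, and the ligands were given without them too. The arrays lay on 4 slides of 3, so that a slide carried all treatments of a labelled line and replicate number, and every treated array was compared with the control of its own slide. A level is a log2 signal relative to the 75th percentile of its array, so that 0 is the 75th percentile. A difference is the level on the treated array minus that on the control array. Fold changes from a fit, and all values with ± SE, are log2 values throughout. Ratios are written as -fold or as a share of the control.

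The line labels are in doubt. The titles name both lines, whereas the source field names HK-2 for all arrays. Control levels were correlated across 15329 probes that were well above background throughout. The slide HK-2 replicate 1 was closest to the slide RPTEC/TERT1 replicate 2 (r = 0.984), and HK-2 replicate 2 was closest to RPTEC/TERT1 replicate 1 (r = 0.973). Within a labelled line, r was 0.880 for HK-2 and 0.875 for RPTEC/TERT1. The slides are therefore called by their labels, and the main comparison does not use the line. HK-2 replicate 1 with RPTEC/TERT1 replicate 2 are called the first pair of slides, and HK-2 replicate 2 with RPTEC/TERT1 replicate 1 the second pair, for the likeness of their control arrays alone. All 12 arrays had 7 of 13 proximal tubule markers well above background, among them SLC5A2, which encodes SGLT2, while SLC22A6 and HNF4A were on none. ANPEP and the epithelial cadherin gene CDH1 were well above background on all 6 arrays of the first pair of slides and on none of the others. Of the markers of other cell types, 1 of 4 endothelial, 2 of 4 leukocyte and 0 of 4 fibroblast genes reached that mark throughout, and TEK and PDGFRB on no array. The summed leukocyte marker signal lay between 188 and 1084 in control arrays, between 652 and 957 in IL-1β arrays and between 129 and 879 in Empa arrays. The summed endothelial signal lay between 74.8 and 105 in control, 62.4 and 117 in IL-1β and 60.3 and 168 in Empa arrays, and the fibroblast signal between 28.2 and 62.9, 42.9 and 55.8, and 22.4 and 87.3. Their part in the results was not tested.

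Arginine enters tubular cells through cationic amino acid transporters. The proximal tubule is known as the main site where citrulline is turned into arginine, by argininosuccinate synthase (ASS1) and argininosuccinate lyase (ASL). Arginine is split to ornithine and urea by arginase, or oxidized to nitric oxide and citrulline by nitric oxide synthases, which need tetrahydrobiopterin as a cofactor. Ornithine decarboxylase (ODC1) opens polyamine synthesis from ornithine, and spermidine/spermine N1-acetyltransferase (SAT1) acetylates spermidine and spermine so that they can be oxidized or exported.

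The probes are 60 bases long. The 3 below lie in coding sequence and are shown because the results turn on SAT1 (the gene past the threshold with IL-1β), on ASS1 (lower with Empa on every slide) and on ARG2 (the arginase gene read here). Positions are those of the array annotation on hg19, all on the plus strand.
SAT1 A_33_P3371718, chrX:23803863-23803922: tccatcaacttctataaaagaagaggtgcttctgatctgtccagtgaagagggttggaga
ASS1 A_23_P31921, chr9:133342120-133342179: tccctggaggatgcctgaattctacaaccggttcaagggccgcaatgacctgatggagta
ARG2 A_23_P128728, chr14:68117539-68117598: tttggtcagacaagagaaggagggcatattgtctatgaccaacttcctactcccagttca

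IL-1β raised SAT1 in all 4 slides, with 3 of 3 probes past the threshold, and no probe of another member passed. The rise was 7.36- to 10.2-fold on the first pair of slides, and 1.90- to 2.83-fold on the second pair. With Empa, 0 of the 14 probes passed the threshold and 3 had an unadjusted p under 0.05, namely both ASS1 probes and ASL, all lower. In limma's fit with the slide as a block and Benjamini-Hochberg adjustment over the 21864 probes tested (threshold 0.05), 2217 probes (10.1%) were past the threshold for IL-1β, of which 795 (3.64%) were higher and 1422 lower. With quantile normalization the split was 977 higher and 1057 lower. For Empa 1 probe (0.00457%) passed, that of DHRS2, a gene named after its value was seen, and 2402 probes had an unadjusted p under 0.05. All 14 member probes could be tested. The median log2 fold change over the 14 probes was 0.42 with IL-1β, against -0.11 over all probes tested, and -0.11 with Empa, against -0.04. The amount of RNA per cell and the share of cells that respond cannot be told apart in such bulk samples.

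**Figure D1:**
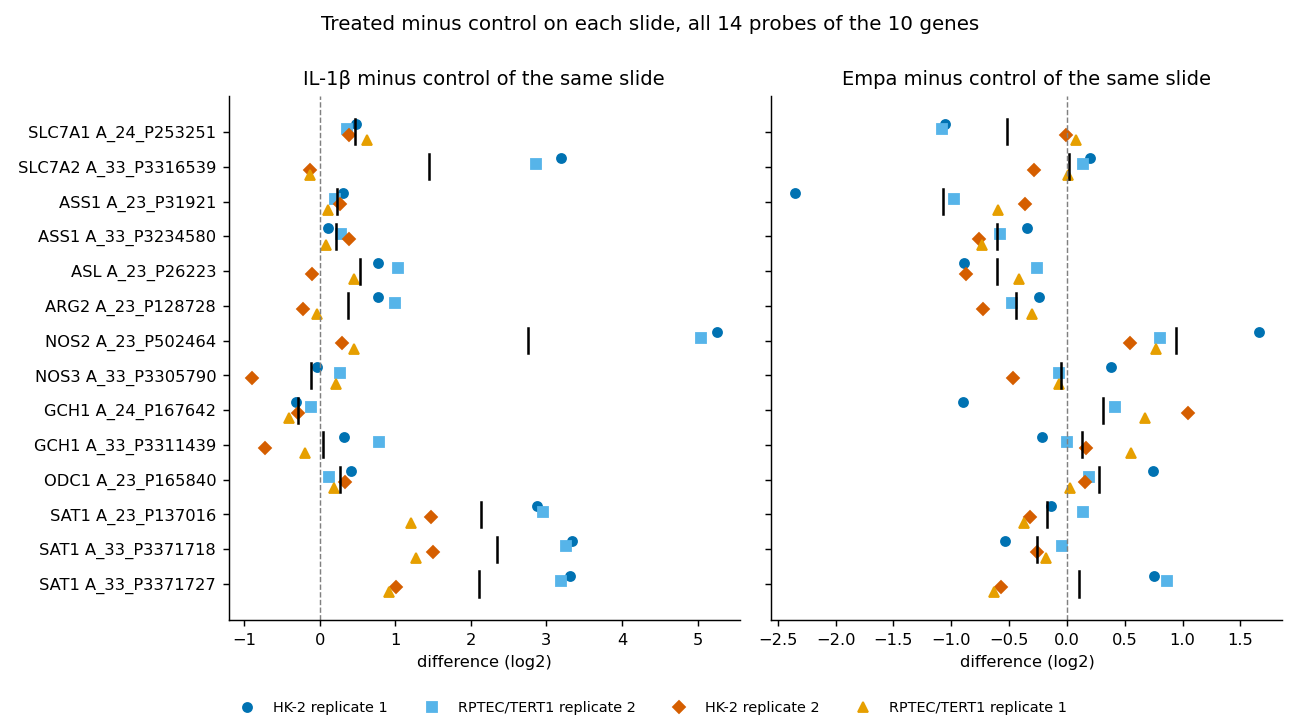
Difference in log2 level between each treated array and the control array of its slide (x axis) for the 14 probes of the 10 genes (rows), with IL-1β left and Empa right. Symbols are the 4 slides and vertical bars the mean of the 4 differences. The 3 SAT1 probes lie between 0.92 and 3.35 with IL-1β, while NOS2 and SLC7A2 are far to the right on 2 slides only. For NOS2 the control values of those slides are the floor.

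With IL-1β, 8 of 14 probes were higher than control in all 4 slides, as were 14.3% of all probes tested. These were the 3 SAT1 and both ASS1 probes, SLC7A1, NOS2 and ODC1. In 5 of 14 probes (3 SAT1, NOS2 and SLC7A1) the 4 IL-1β arrays all lay above the 4 control arrays, which held for 3.35% of all probes. NOS2 was well above background on no control array and could be tested only through its treated arrays. Its control values are the floor or not well above background, so its place in both counts carries no weight. With Empa, 5 of 14 probes were lower in all 4 slides (both ASS1 probes, ASL, ARG2 and SAT1 A_33_P3371718), against 13.8% of all probes. In 0 of the 14 probes did the Empa arrays all lie below the control arrays, and 1.31% of all probes showed this. The probes of 1 gene read transcripts of that gene on the same arrays and are not independent. Since the members were chosen with earlier results known, these shares are a description. No member probe passed the test of a difference in response between the labelled lines, whose labels are in doubt. The lowest unadjusted p was 0.131 for IL-1β and 0.267 for Empa, and every adjusted p was 1 in limma's interaction fit. Over all probes tested, the fit called 0 for either ligand, with or without the replicate block. With the block, 352 and 214 probes had an unadjusted p under 0.05.

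SAT1 was the only member past the threshold. Its probe A_23_P137016 (chrX:23804055-23804114, plus strand) had control levels of 4.15 (HK-2 replicate 1), 4.20 (RPTEC/TERT1 replicate 2), 3.33 (HK-2 replicate 2) and 3.29 (RPTEC/TERT1 replicate 1). In the same order of slides, its IL-1β levels were 7.03, 7.16, 4.80 and 4.51. The IL-1β arrays all lay above the control arrays, and the slides with the higher control level also had the higher level with IL-1β. The within-slide rise was 7.36-, 7.74-, 2.78- and 2.32-fold. In limma's fit the log2 fold change was 2.13 ± 0.31 (SE, 4 slides), with an adjusted p of 0.00545. Empa arrays read 4.01, 4.35, 3.01 and 2.92, and the fold change was -0.17 ± 0.31 (adjusted p = 0.838, limma), with lower levels in 3 slides and a higher level in 1.

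The other SAT1 probes showed the same split between the pairs of slides. The probe A_33_P3371718, whose sequence is given above, read 3.21, 3.30, 2.43 and 2.56 in control arrays. It reached 6.55, 6.57, 3.93 and 3.84 with IL-1β, which is 10.2-, 9.60-, 2.83- and 2.42-fold higher. Its log2 fold change was 2.35 ± 0.41 (adjusted p = 0.0111, limma). Probe A_33_P3371727 (chrX:23802269-23802328, plus strand), assigned to another SAT1 transcript and well above background on 11 arrays, read -3.67, -3.29, -3.83 and -3.80 in control arrays. With IL-1β it read -0.36, -0.10, -2.82 and -2.88, a rise of 2.11 ± 0.41 (adjusted p = 0.0165, limma). In the authors' table its log2 fold change was 0.91 and the call was lost (adjusted p = 0.052, limma). All 3 probes thus rose on each slide, by less on the second pair. With Empa, A_33_P3371718 had a fold change of -0.26 ± 0.41 and A_33_P3371727 one of 0.11 ± 0.41, the latter higher on the first pair of slides and lower on the other 2.

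**Figure D2:**
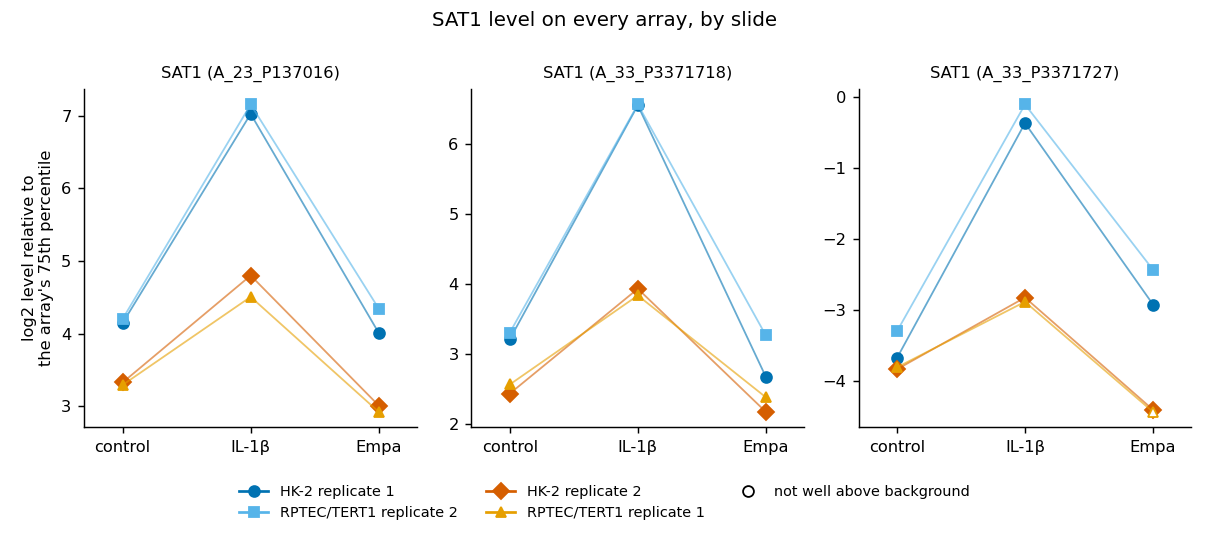
Level of the 3 SAT1 probes (log2 relative to the 75th percentile of the array, y axis) on control, IL-1β and Empa arrays (x axis), with the arrays of a slide joined by a line. Open symbols are not well above background, which applied to 1 Empa array of A_33_P3371727. All IL-1β arrays lie above all control arrays, and the highest reach 7.16, 6.57 and -0.10.

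The SAT1 calls depended on comparing within slides. Without the replicate block, limma called 0 of the 3 probes (adjusted p = 0.611, 0.543 and 0.681), since the spread between slides then counted as error. Without the slide RPTEC/TERT1 replicate 2 the log2 fold changes were 1.86, 2.04 and 1.75, and no SAT1 probe passed (adjusted p = 0.058, 0.0949 and 0.122). Within a scan day the fold change of A_23_P137016 was 2.05 (replicates 1) and 2.21 (replicates 2), and within the arrays labelled HK-2 and RPTEC/TERT1 it was 2.18 and 2.08, with adjusted p between 0.213 and 0.459. An unpaired t-test that pooled both labelled lines called none of the 3 probes after adjustment either. It is called the methods' t-test below. The study names such a test for its real-time PCR and protein data, and chose array genes by the sign of the change. SAT1 is in a list that the study selected on these arrays for a rise with IL-1β and a fall with Empa, so its direction is not independent evidence.

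The genes whose differences resembled those of SAT1 A_23_P137016 most were found over the 8 treated-minus-control differences of the 4 slides. They were CXCL2 (r = 0.995), DUSP5 (r = 0.992), IQCD (r = 0.991), IL6 (r = 0.990) and RIMKLB (r = 0.990). CXCL2, a neutrophil-attracting chemokine gene, was higher with IL-1β by 9.97 and 10.21 (log2) on the first pair of slides, and by 5.48 and 4.69 on the second pair. IL6, an inflammatory cytokine gene, was higher by 9.41 and 8.95, and by 4.87 and 4.56. The differences share control arrays, and the values are a description.

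ODC1 (A_23_P165840, chr2:10580788-10580847, minus strand), which makes putrescine, did not pass the threshold with either ligand. Its control levels were 2.13 (HK-2 replicate 1), 2.48 (RPTEC/TERT1 replicate 2), 3.63 (HK-2 replicate 2) and 4.08 (RPTEC/TERT1 replicate 1). The IL-1β arrays read 2.55, 2.61, 3.96 and 4.27. The Empa arrays read 2.87, 2.67, 3.79 and 4.11. Every treated array lay above the control of its slide, but the slides differed among themselves by more, and the groups overlapped. The log2 fold changes were 0.27 ± 0.16 with IL-1β (adjusted p = 0.320, limma) and 0.28 ± 0.16 with Empa (adjusted p = 0.528). In control arrays, ODC1 was thus higher on the second pair of slides, where SAT1 A_23_P137016 was lower.

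Among the arginine transporters, SLC7A2 (CAT2) had the wider spread between slides. Its probe A_33_P3316539 (chr8:17427847-17427906, plus strand) had control levels of -1.27 on HK-2 replicate 1 and -1.12 on RPTEC/TERT1 replicate 2, against 0.87 on HK-2 replicate 2 and 0.54 on RPTEC/TERT1 replicate 1. With IL-1β it read 1.92, 1.75, 0.75 and 0.41. It was thus 9.14- and 7.29-fold higher on the slides with the low control level, and 0.915-fold its control on both of the others. The mean log2 fold change of 1.45 ± 0.60 did not pass (adjusted p = 0.164, limma). In the first pair of slides alone, a choice made after the values were seen, it was 3.03 (adjusted p = 0.00708, limma). Empa levels were -1.07, -0.98, 0.59 and 0.54, each within 0.28 of the control of its slide, and the fold change was 0.02 ± 0.60.

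SLC7A1 (CAT1), the widely expressed arginine carrier, was more even. Its probe A_24_P253251 (chr13:30084093-30084152, minus strand) had control levels of 1.50, 1.29, 1.13 and 1.45 in the same order. IL-1β arrays read 1.97, 1.65, 1.51 and 2.07, all above all control arrays, with within-slide differences between 0.37 and 0.63. The fold change of 0.46 ± 0.24 did not pass the threshold (adjusted p = 0.261, limma). Empa arrays read 0.45, 0.21, 1.12 and 1.52. The differences were -1.05 and -1.08 on the first pair of slides, and -0.01 and 0.08 on the others, with a fold change of -0.51 ± 0.24 (adjusted p = 0.469).

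**Figure D3:**
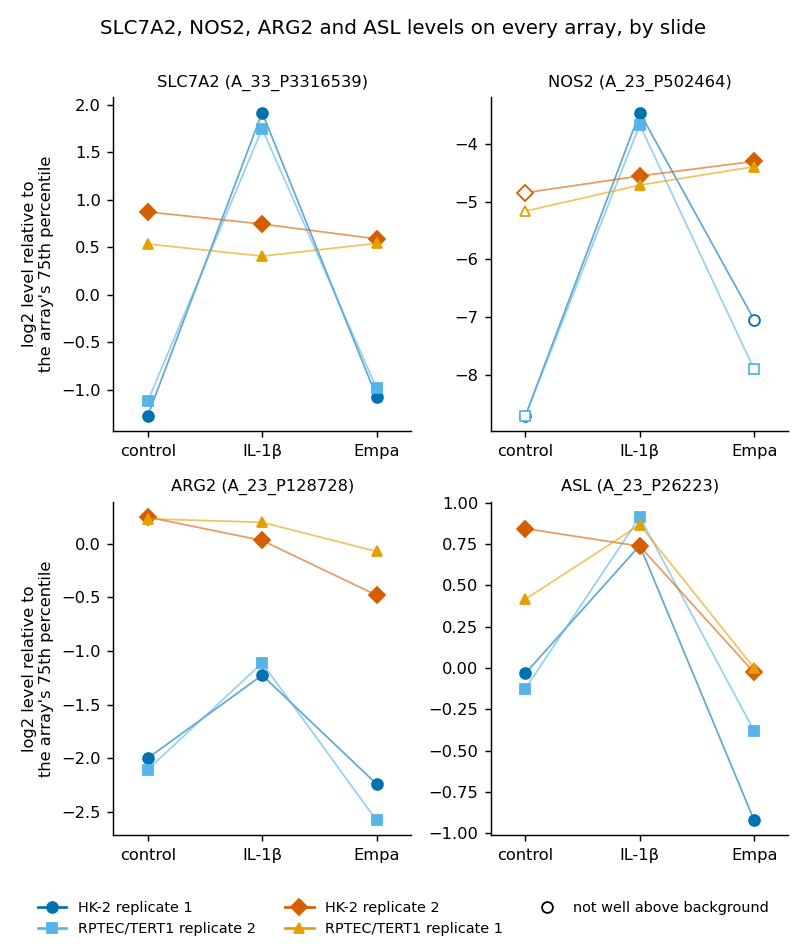
Levels of SLC7A2, NOS2, ARG2 and ASL (log2 relative to the 75th percentile of the array, y axis) on control, IL-1β and Empa arrays (x axis), with the arrays of a slide joined by a line and open symbols for signals not well above background. SLC7A2 and ARG2 start low on the first pair of slides and lie higher there with IL-1β. Both start high on the other slides.

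ASS1, which joins citrulline to aspartate, was lower with Empa on every slide by both probes. The 3′ probe A_33_P3234580 (chr9:133376601-133376660, plus strand) read 2.39 (HK-2 replicate 1), 2.03 (RPTEC/TERT1 replicate 2), 2.25 (HK-2 replicate 2) and 2.60 (RPTEC/TERT1 replicate 1) in control arrays. With Empa it read 2.05, 1.45, 1.49 and 1.87, or 0.787, 0.669, 0.590 and 0.600 of the control. The fold change was -0.61 ± 0.15, with an unadjusted p of 0.00366 and an adjusted p of 0.322 (limma). Probe A_23_P31921, which lies further upstream, read -0.47, -0.92, -0.81 and 0.04 in control arrays and -2.83, -1.90, -1.17 and -0.56 with Empa. Its fold change was -1.07 ± 0.33 (unadjusted p = 0.011, adjusted p = 0.361, limma), and the slide HK-2 replicate 1 lay furthest from its control, at -2.35. The highest Empa array overlapped the control arrays in both probes.

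With IL-1β, both ASS1 probes were slightly higher on all 4 slides, by 0.11 to 0.31 and by 0.08 to 0.39 (log2). The fold changes were 0.23 ± 0.33 and 0.22 ± 0.15, with adjusted p of 0.705 and 0.406 (limma). ASS1 too is among the genes that the study selected on these arrays for opposite signs with the ligands, so the shared sign on the slides is not independent evidence.

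**Figure D4:**
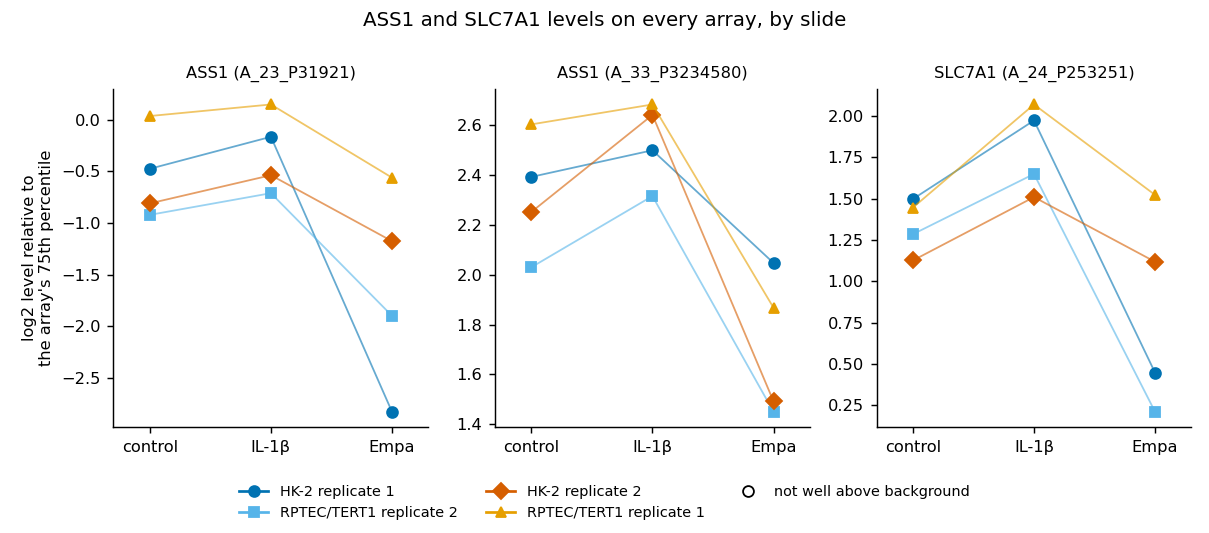
Levels of both ASS1 probes and of SLC7A1 (log2 relative to the 75th percentile of the array, y axis) on control, IL-1β and Empa arrays (x axis), with the arrays of a slide joined by a line. ASS1 is lower with Empa than in the control array on each of the 4 slides, and SLC7A1 on 3 of 4.

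ASL (A_23_P26223, plus strand), which releases arginine from argininosuccinate, read -0.03, -0.13, 0.84 and 0.42 in control arrays in the same order of slides. Its Empa levels were -0.92, -0.38, -0.03 and -0.00, lower on all 4 slides. The fold change was -0.61 ± 0.21 (unadjusted p = 0.0193, adjusted p = 0.389, limma). IL-1β arrays lay close together at 0.74, 0.91, 0.74 and 0.87, so the difference from control was 0.77 and 1.04 on the slides with a low control level, and -0.11 and 0.45 on the others. The mean of 0.54 ± 0.21 had an unadjusted p of 0.0326 and an adjusted p of 0.145 (limma). ASL was thus lower than its control with Empa on each slide, and higher with IL-1β on 3 of 4. A difference holds the control value itself, so a low control raises it, for SLC7A2 and ARG2 as well. A dependence of the response on the control level was not tested.

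ARG2, the mitochondrial arginase, separated the slides in the control arrays. It read -2.0 and -2.10 on the first pair of slides, and 0.25 and 0.23 on the second pair. IL-1β arrays read -1.22, -1.11, 0.03 and 0.20, higher on the slides with a low control and lower on the others. The fold change of 0.38 ± 0.23 did not pass (adjusted p = 0.334, limma). Empa arrays read -2.24, -2.58, -0.48 and -0.07, lower by 0.24 to 0.73 on all 4 slides, with a fold change of -0.44 ± 0.23 (adjusted p = 0.511). The groups overlapped with both ligands.

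NOS2, the inducible nitric oxide synthase, was not well above background on any control array and was so on all 4 IL-1β arrays. Its probe A_23_P502464 (chr17:26083862-26083921, minus strand) read -3.46, -3.67, -4.56 and -4.72 with IL-1β. The control arrays read -8.71 on the first pair of slides, which is the floor of the scale, and -4.85 and -5.17 on the other slides. Control arrays thus hold only a bound, which is the dimmest signal marked well above background on that array or, where higher, the signal of the probe itself. Against it, NOS2 was at least 5.15- and 3.90-fold higher on the first pair of slides. On the second pair the control signal of the probe itself was the bound, so the 1.22- and 1.37-fold there are ratios as read. Those control signals were not well above background. Between the group means NOS2 was at least 2.41-fold higher, which rests in part on these ratios. The fitted probe had an adjusted p of 0.0876 (limma), which did not pass. It passed without the HK-2 IL-1β array of replicate 2 (adjusted p = 0.0472) and without the RPTEC/TERT1 IL-1β array of replicate 1 (adjusted p = 0.0444). These p-values, too, rest on 2 control values set at the floor. With Empa the probe was well above background on the second pair only, 1.46- and 1.70-fold above the same control signals as read. It read -4.30 and -4.40 there, above the IL-1β arrays of the same slides. Between the group means, Empa gave no bound for a rise (adjusted p of the fitted probe 0.685, limma).

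NOS3, the endothelial-type synthase, was above background on all arrays (A_33_P3305790, chr7:150711495-150711554, plus strand). Control levels were -1.36, -1.44, -1.10 and -2.23, IL-1β levels -1.39, -1.17, -2.0 and -2.0, and Empa levels -0.97, -1.50, -1.57 and -2.30. No order between treatments held on all slides. The fold changes were -0.11 ± 0.22 and -0.05 ± 0.22, with adjusted p of 0.791 and 0.934 (limma).

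GCH1, which opens tetrahydrobiopterin synthesis, was read by a probe well above background on all arrays and by another that was not. The first, A_24_P167642 (chr14:55309388-55309447, minus strand), read -2.10, -2.95, -2.48 and -2.04 in control arrays and -2.40, -3.07, -2.76 and -2.45 with IL-1β, lower on all 4 slides by 0.12 to 0.41. The fold change of -0.28 ± 0.32 did not pass (adjusted p = 0.610, limma). Empa levels were -3.00, -2.53, -1.43 and -1.36, lower on HK-2 replicate 1 and higher on the other slides (fold change 0.31 ± 0.32, adjusted p = 0.703). The second probe, A_33_P3311439 (chr14:55312490-55312549, minus strand), was well above background on 7 of 12 arrays and lay between -5.24 and -4.10 over all of them. Its fold changes were 0.05 ± 0.30 and 0.13 ± 0.30.

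Of 67 genes from lists of arginine, nitric oxide and polyamine pathways around the members, 53 had a testable probe, 73 probes in all. The lists were written with earlier results of these data known, so the shares below are a description. With IL-1β 14 of the 73 probes (19.2%, against 10.1% of all probes) passed the threshold in limma's fit, 5 higher (4 genes) and 9 lower (7 genes). With Empa 0 passed in the same fit. There 14 of 73 (19.2%) had an unadjusted p under 0.05, a larger share than the 2402 of all 21864 probes. Without the replicate block 0 of the 14 were called, and leaving out single arrays or slides left 2 to 19 of the 73 called.

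In the transport list, SLC7A7, the light chain of the carrier that exports basic amino acids at the basolateral side, rose by 1.86 ± 0.30 (log2, adjusted p = 0.00797, limma). It was well above background on 7 of 12 arrays, of which 6 were the second pair of slides, and differed from control there by 1.90 and 1.68. SLC3A1, the heavy chain of the apical carrier for cystine and basic amino acids, fell by 3.08 ± 0.66 (adjusted p = 0.0229). On the first pair of slides the differences of SLC3A1 were -4.17 and -4.00, and on the second pair they were -2.05 and -2.09. Its second probe lay at the floor on all arrays of the latter slides and did not pass (adjusted p = 0.131). In the list of proline and ornithine genes, PRODH, which oxidizes proline, fell by 1.70 ± 0.44 and by 1.10 ± 0.26 in 2 of 3 probes. The former was well above background on the 6 arrays of the first pair of slides only, where its differences were -0.57 and -0.69.

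In the lists around nitric oxide, 1 gene rose and 3 fell with IL-1β. CAV1, which encodes caveolin-1, an inhibitor of NOS3, rose by 0.89 ± 0.21 and 0.86 ± 0.20 in both probes. It is in the list that the study selected on these arrays, so its direction is not independent evidence. DDAH2, an enzyme family member linked to the breakdown of methylated arginines, fell by 0.64 ± 0.17 (adjusted p = 0.0485, limma). GUCY1A3, a subunit of the nitric oxide receptor guanylate cyclase, fell by 1.10 ± 0.19 and 1.15 ± 0.31 in 2 of 4 probes. PDE5A, which breaks down cGMP, fell by 2.26 ± 0.38 (adjusted p = 0.00958, limma). In the tetrahydrobiopterin list 0 of 7 probes passed.

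In the polyamine lists SLC18B1, a vesicular polyamine transporter, rose by 1.51 ± 0.20 by 1 of 2 probes (adjusted p = 0.00391, limma). The second probe was higher by 1.42 ± 0.45 (adjusted p = 0.0805), and SLC18B1 is in the list that the study selected on these arrays. The 9 probes of polyamine synthesis and control and the 4 of hypusine formation gave 0 calls with IL-1β. Among the neighbours of the urea cycle, AZIN2, an antizyme inhibitor, fell by 0.82 ± 0.17 by 1 of 2 probes, and GAMT, which completes creatine synthesis, fell by 1.06 ± 0.28 (adjusted p = 0.0478, limma). The breakdown and transport list had 1 of 11 probes past the threshold (9.09%, against 10.1% of all probes). SAT2, a paralog of SAT1, was lower on all 4 slides (-0.61 ± 0.20, adjusted p = 0.0957, limma). In the synthesis list AMD1, which makes the aminopropyl donor, was higher on all 4 (0.90 ± 0.26, adjusted p = 0.059, limma). Neither passed, and both were named after their values were seen.

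**Figure D5:**
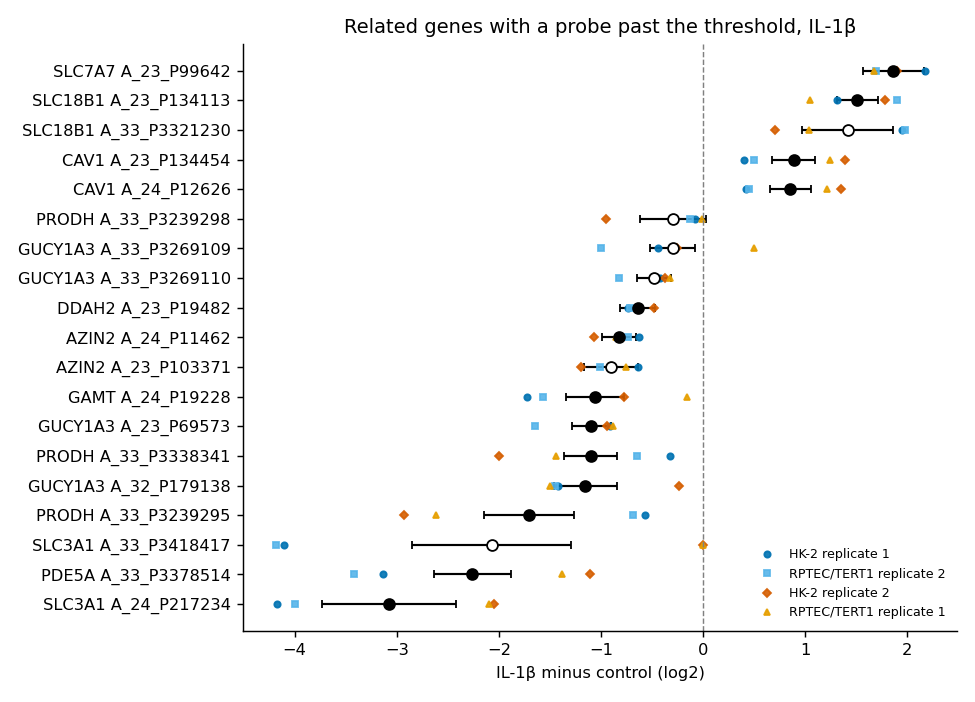
Log2 fold change with IL-1β ± SE (large circles with bars) and the 4 within-slide differences (small colored symbols) on the x axis for the tested probes of 10 of the 11 related genes with a probe past the threshold, the other gene not being reported here. Filled circles passed and open circles did not. SLC3A1 lies furthest below 0, at -3.08, and SLC7A7 furthest above, at 1.86.

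The promoter stretch of SAT1 is given because SAT1 was the member called. RefSeq promoters (GRCh38.p14, 250 bases before and 50 after the start) were scanned for 7 of the 10 members, with 10 starts. Those of NOS2, GCH1 and SLC7A2 were not scanned, so the counts below say nothing about these genes. The NF-κB consensus on either strand was found in 4 of them (ASL, both NOS3 starts and 1 ODC1 start) and in 11.3% of 35116 promoters. The NOS3 windows overlap, as do those of ASS1, so a site can be counted more than once and the starts are not independent. TGANTCA, bound by AP-1, was in 0 of the 10 and in 7.71% of all. GGGCGG was in 9 of the 10 and in 45.0% of all, and TATAAA in 0 of the 10 and in 11.5% of all. None of these letters is in the SAT1 window, of which the 250 bases before the start are printed (plus strand).
SAT1 promoter, chrX:23782923-23783172: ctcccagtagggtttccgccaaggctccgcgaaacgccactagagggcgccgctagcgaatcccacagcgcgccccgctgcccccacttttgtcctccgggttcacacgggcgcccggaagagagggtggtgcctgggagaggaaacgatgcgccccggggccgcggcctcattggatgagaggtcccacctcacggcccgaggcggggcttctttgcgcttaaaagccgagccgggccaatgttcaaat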

How the data were processed

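The authors scanned one-color Agilent arrays (Human GE 4x44K v2) and read them with Feature Extraction 9.5.3.1. The deposited intensity files give, per the file headers, a background-subtracted and detrended signal in signal units, flags for outlier, saturated and well-above-background spots, and positions on hg19. No scaling across arrays had been applied. A table of quantile-normalized log2 values deposited by the authors served as an alternative.

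From these files, 1377 control spots and outlier spots were left out and the spots of a probe averaged. Signals were scaled to the 75th percentile of the array (298 to 765 signal units), set to no less than 1 unit and log2-transformed. On an array, between 53.5% and 63.8% of probes were well above background, and no member probe was saturated. Tested were 21864 probes well above background on at least 2 of the 4 arrays of a treatment. The model, in limma 3.58.1 under R 4.3.3, took 1 effect per treatment and the slide as a block over all 12 arrays, which left 6 residual degrees of freedom. P-values were adjusted over all probes tested (Benjamini-Hochberg), at a threshold of 0.05. A second fit tested the difference between the labelled lines. The slide was taken as the block because each slide carried all 3 treatments of a labelled line and replicate number. Deviations from the mean of a labelled line and treatment correlated across probes between treatments of a slide (r = 0.592 to 0.906). With 2 arrays per line and treatment, this r shows only that replicates 1 and 2 of a label differed alike in each treatment. The cause was not tested. Both lines' slides of a replicate number were scanned on the same day. The study calls the arrays of a condition biological duplicates, and the labels do not say whether they are separate cultures. The p-values measure the spread between these arrays, whose number limits the precision. The procedure was tested on simulated data.

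Named were all members with every probe, related genes with a probe past the threshold, and the 5 genes most like the member probe with the lowest adjusted p for IL-1β. The members and lists were chosen with earlier results of these data known. Alternatives were the fit without a block, other normalizations and filters, 1 probe per gene, outlier spots kept, a floor of 5 units, arrays or slides left out, single lines or scan days, and the methods' t-test. Pairs of slides with like control arrays were added after seeing the data. Sequences come from the array files and RefSeq. Some items are not reported here. Figures were drawn with matplotlib 3.10.9 in Python 3.11.15.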

Additional observations from a re-analysis of the deposited data

How the results depend on the processing

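Of 910 values of the 14 member probes under alternatives, 878 kept their side of the threshold and 0 called values changed direction. Most of the 910 belong to results not called in the main fit, and many alternatives leave out arrays. The pooled count therefore says little about stability. Another 51 fold changes, none of them called, changed sign. SAT1 A_23_P137016 stayed past the threshold in 26 of 33 alternatives (log2 fold change 1.34 to 2.92), A_33_P3371718 in 24 of 32 (1.39 to 3.30) and A_33_P3371727 in 18 of 31 (0.91 to 3.25). Beyond the fits without the block or without the slide RPTEC/TERT1 replicate 2, in single lines or scan days and in the methods' t-test, in which all 3 were lost, A_33_P3371718 was lost without the control array of HK-2 replicate 1 (2.23, adjusted p = 0.0505). A_33_P3371727 was lost without that array (1.80), the IL-1β array of HK-2 replicate 1 (1.82), the control (1.80) or IL-1β array (1.88) of RPTEC/TERT1 replicate 2, or the slide HK-2 replicate 1 (1.71), with adjusted p between 0.0516 and 0.0848. NOS2 passed in 3 alternatives, in 1 of which, the slides HK-2 replicate 1 and RPTEC/TERT1 replicate 2 alone, both control values are the floor, so its p says nothing there. SLC7A2 passed in 1, as given above. The fitted NOS2 value was 2.76 (log2), against 1.60 with a floor of 5 units, 0.38 after normexp and 0.23 in the authors' table. In the fit, 2 of its 4 control values are the floor itself. A_33_P3371727 was 0.91 in the authors' table (adjusted p = 0.052), and the cause was not tested.

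For IL-1β, 5 probes passed without the replicate block, 48 in the methods' t-test, and 0 in either labelled line or either scan day alone, which leave 6 arrays. In the slides HK-2 replicate 2 and RPTEC/TERT1 replicate 1 alone 1280 passed, and in the other 2 slides 2510, also with 6 arrays. The cause was not tested. Leaving out single arrays or slides gave 374 (without the slide RPTEC/TERT1 replicate 2) to 3372 (without the HK-2 Empa array of replicate 1). Counts moved by over 1.5 times also without the control array of HK-2 replicate 1 (749), HK-2 replicate 2 (1017), RPTEC/TERT1 replicate 1 (1377) or RPTEC/TERT1 replicate 2 (800), without the IL-1β array of HK-2 replicate 1 (1071) or RPTEC/TERT1 replicate 2 (817), and without the slide HK-2 replicate 1 (1006), HK-2 replicate 2 (628) or RPTEC/TERT1 replicate 1 (1029). For Empa, 0 passed without the replicate block, after normexp, in the authors' table, without a filter, with probes above background on all 12 arrays, with a floor of 5 units, in single lines or scan days and in both pairs of slides, 2 passed in the methods' t-test, and 0 to 3 when arrays or slides were left out. The line differences stayed at 0 where they could be fitted. Signals near background limit NOS2 and the second GCH1 probe.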
